A study of Mus musculus with 22 samples.

Results

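The genes described here are 8 genes of the mouse epididymis, Spint4, Adam7, Lcn5, Lcn8, Crisp1, Gpx5, Rnase10 and Cst11, followed library by library in arrays made from testis RNA. They were chosen by name, with their levels in these testis libraries already known, so the testis values below are a description, and the counts of calls given for them support nothing. Every probe whose platform gene symbol was one of the 8 was taken, which gave 8 probes of 6 genes among the 25697 probes of the arrays. Adam7, Spint4, Lcn5 and Lcn8 had 1 probe each, and Gpx5 and Cst11 had 2 each. The levels of Crisp1 and Rnase10 were not analysed here because the platform table held no probe under those symbols.

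The study compared Sgms1 mutant mice with wild-type mice of the C57BL/6J strain, and its design text speaks of males. Sgms1 encodes sphingomyelin synthase 1, which makes sphingomyelin from ceramide in the Golgi. The labels say only that the animals are mutant, without naming the allele or how it was made. Testis came from 4 mutant and 4 wild-type mice aged 27 weeks, and brain and muscle both came from the same 4 mutant and 3 wild-type mice aged 17 weeks, 1 array per tissue of each mouse.

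The epididymis is the coiled duct that receives sperm from the testis through the efferent ducts, and sperm gain motility and the ability to fertilise while they pass along it. Its epithelium secretes lipocalins, beta-defensins, protease inhibitors and antioxidant enzymes into the duct, under the control of androgens and of factors that arrive with the testicular fluid, and many of these proteins end up on the sperm surface. The genes are known chiefly from that epithelium and not from the seminiferous tubules or the Leydig cells, so their levels are set beside marker lists for both organs.

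The promoters of the 4 measured genes with an entry among the RefSeq promoters (build GRCm38.p6) are shown because all 4 genes are low in the same library, wild-type testis 4, although they did not move together over the other 7. Each line holds the 250 bases before the annotated start, read 5′ to 3′ on the gene's own strand. Lcn8 and Lcn5 are neighbours on chromosome 2, at chr2:25652868-25653117 (plus strand) and chr2:25657702-25657951 (plus strand), with Lcn6 and Lcn10 beside them. Spint4 lies elsewhere on the same chromosome at chr2:164698251-164698500 (plus strand), among genes of the Wfdc family, and Gpx5 at chr13:21292687-21292936 (minus strand).
Lcn8: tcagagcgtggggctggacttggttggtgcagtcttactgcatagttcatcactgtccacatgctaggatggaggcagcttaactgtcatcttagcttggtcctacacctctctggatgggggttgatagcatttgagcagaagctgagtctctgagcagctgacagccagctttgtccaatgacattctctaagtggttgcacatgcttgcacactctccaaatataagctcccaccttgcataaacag
Lcn5: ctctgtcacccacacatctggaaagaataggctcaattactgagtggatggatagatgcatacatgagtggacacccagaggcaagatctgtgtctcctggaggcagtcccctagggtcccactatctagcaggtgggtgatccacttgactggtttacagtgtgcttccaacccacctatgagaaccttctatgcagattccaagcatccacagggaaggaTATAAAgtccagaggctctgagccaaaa
Spint4: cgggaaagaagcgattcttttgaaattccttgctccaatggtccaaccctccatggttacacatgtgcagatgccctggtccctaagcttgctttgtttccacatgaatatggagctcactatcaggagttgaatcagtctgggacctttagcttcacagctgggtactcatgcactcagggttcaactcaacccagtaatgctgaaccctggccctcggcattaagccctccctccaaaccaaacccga
Gpx5: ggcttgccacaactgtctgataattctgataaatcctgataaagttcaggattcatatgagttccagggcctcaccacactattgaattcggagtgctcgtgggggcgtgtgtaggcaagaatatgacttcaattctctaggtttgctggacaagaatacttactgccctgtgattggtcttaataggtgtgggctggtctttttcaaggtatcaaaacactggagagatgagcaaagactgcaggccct
Capitals mark TATAAA, which was looked for after the sequences had been seen and stands once in the Lcn5 window, at position -28 from the start. The androgen receptor's short binding motif (AGAACA or, on the other strand, TGTTCT) and an ETS motif of the PEA3 type (AGGAAG or CTTCCT) were each found in 0 of these 4 windows. Of 32851 RefSeq promoter windows of the same length, 16.1% held the androgen receptor motif, 29.5% the PEA3-type motif and 12.4% the letters TATAAA or TTTATA. A missing match says only that these letters are not in this window. Crisp1 and Rnase10, whose levels were not measured, had promoter entries too, and these did hold matches. The Crisp1 window held TATAAA at position -31, with 0 matches to the androgen receptor motif and 0 to the PEA3-type motif. Rnase10 had overlapping windows for different annotated starts. In the upstream window the androgen receptor motif stood at -42. The downstream window held that motif 2 times and the PEA3-type motif at -133. Adam7 and Cst11 had no promoter entry.

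The testis arrays had median raw intensities between 93.7 and 107 arbitrary units, and between 10560 and 12108 probes per array were detected at a detection p under 0.05. Wild type 2 was the dimmest array, while the median intensity of wild type 4 (101) and its number of detected probes (11458) lay inside the range of the others. Its highest correlation with another testis library over all kept probes was 0.964, where the other 7 libraries reached 0.971 to 0.987. Sgms1 itself, on a log2 scale, read 5.06, 5.89, 4.97 and 5.89 in mutant testes 1 to 4, against 6.07, 5.43, 6.26 and 6.55 in wild-type testes 1 to 4. The mutants were lower by a log2 difference of -0.62 (SE 0.27, limma, adjusted p = 0.834), and the groups overlapped through mutants 2 and 4 and wild type 2. In brain, the library labelled mutant 2 (8.14) and the library labelled wild type 3 (6.64) went against their labels for Sgms1.

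In 7 of the 8 testis libraries all 6 genes were detected on at least 1 probe, with most probes far above the array's background. In the remaining library, wild type 4, 5 of the 6 genes still passed detection on 1 probe each (5 of 8 probes), all at far lower levels, and Lcn5 did not. Lcn8, a lipocalin that carries small lipophilic molecules in the epididymal fluid, showed this most plainly. Its raw intensity was 3395, 4274, 4064 and 3406 in mutant testes 1 to 4, against 6098, 2575, 3862 and 142 in wild-type testes 1 to 4. After background correction and quantile normalization its log2 level was 11.82 ± 0.19 in mutants and 10.56 ± 3.04 in wild type (SD, n = 4 each). Wild type 4 stood at 6.00, detected but 5.55 below the next-lowest testis library, whereas the other 7 libraries spanned 0.69 on the log2 scale. Lcn5, the neighbour of Lcn8, encodes another epididymal lipocalin, which binds retinoic acid. Lcn5 had raw intensities of 177, 139, 132 and 157 in mutant testes 1 to 4, against 176, 139, 140 and 99.2 in wild-type testes 1 to 4. It was detected in every testis library except wild type 4, whose detection p was 0.197. Its log2 level averaged 6.03 ± 0.42 in mutants and 5.83 ± 1.09 in wild type (SD, n = 4 each).

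**Figure D1:**
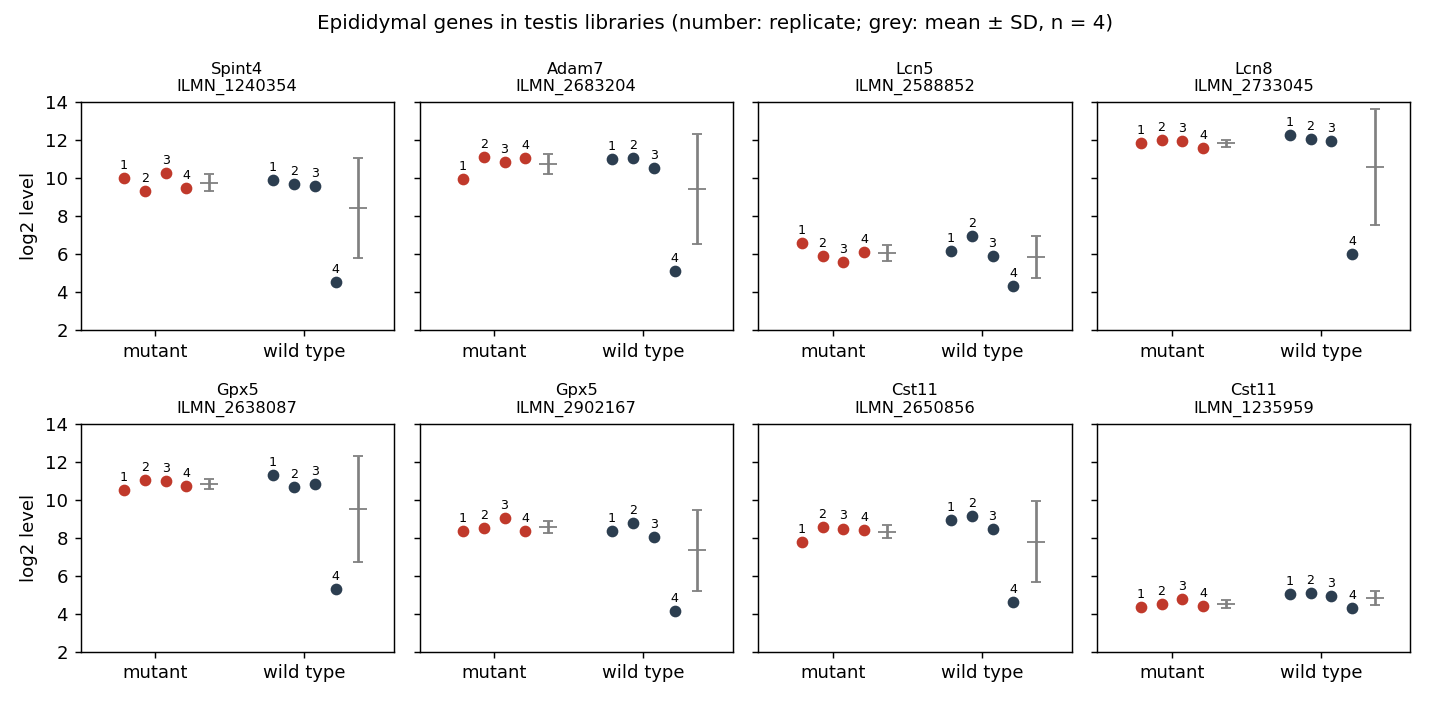
Normalized log2 level (vertical axis) of the 8 probes of the epididymal genes, 1 panel per probe, in mutant and wild-type testes (horizontal axis), with points numbered by replicate and the mean ± SD in grey (n = 4 each). Wild type 4 is the lowest library for 7 of the 8 probes, by 5.55 for Lcn8, and on the dim second Cst11 probe several libraries were not detected and have no order.

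Gpx5 encodes a secreted glutathione peroxidase that protects sperm from peroxides, and its 2 probes gave the same picture. The probe ILMN_2638087 read 1479, 2189, 2137 and 1984 in mutant testes 1 to 4, against 3391, 897, 1898 and 119 in wild-type testes 1 to 4. The probe ILMN_2902167 read 409, 451, 628 and 437 in mutant testes 1 to 4, against 512, 289, 347 and 91.6 in wild-type testes 1 to 4. Only wild type 4 was far from the rest on both, and it was not detected on the second (detection p 0.946). On the first probe wild type 4 lay 5.20 below the next-lowest library on the log2 scale. The mutant means were 10.81 ± 0.25 and 8.56 ± 0.31, against wild-type means of 9.51 ± 2.81 and 7.33 ± 2.14 (SD, n = 4 each).

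Adam7 is a membrane protein of the ADAM family without an active protease site, made in the epididymis and passed to sperm. Its raw intensity was 1042, 2288, 1955 and 2424 in mutant testes 1 to 4, against 2880, 1146, 1564 and 114 in wild-type testes 1 to 4. Mutant 1 was the lowest of the mutants, and wild type 4 lay 4.82 below the next-lowest library on the log2 scale. The normalized log2 level averaged 10.73 ± 0.55 in mutants and 9.41 ± 2.87 in wild type (SD, n = 4 each). Spint4 belongs to the Kunitz-type serine protease inhibitors. It had raw intensities of 1052, 715, 1316 and 858 in mutant testes 1 to 4, against 1362, 488, 866 and 103 in wild-type testes 1 to 4. Its log2 level averaged 9.75 ± 0.44 in mutants and 8.42 ± 2.61 in wild type (SD, n = 4 each), and wild type 4, barely detected (detection p 0.0489), lay 4.80 below the next-lowest library.

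Cst11 encodes a cystatin, a family in which many members, though not all, inhibit cysteine proteases. On the probe ILMN_2650856 it read 304, 458, 459 and 460 in mutant testes 1 to 4, against 720, 348, 442 and 105 in wild-type testes 1 to 4. Wild type 4 lay 3.16 below the next-lowest library on the log2 scale, and the means were 8.31 ± 0.35 in mutants and 7.78 ± 2.12 in wild type (log2, SD, n = 4 each). The second probe, ILMN_1235959, stayed close to background throughout, with 99.8, 103, 109 and 102 in mutant testes 1 to 4, against 124, 99.7, 111 and 98.1 in wild-type testes 1 to 4. It was detected in 2 of 4 mutants and 3 of 4 wild types, so wild type 4 and the undetected mutants have no order among themselves on it. The size of these gaps rests on the background correction, since wild type 4 was close to background. Over 6 ways of scaling, the log2 gap ran from 4.41 to 5.56 for Lcn8, 3.67 to 5.33 for Gpx5 (ILMN_2638087), 3.20 to 5.03 for Adam7, 2.80 to 5.51 for Spint4 and 1.52 to 3.77 for Cst11 (ILMN_2650856). The lowest of each came without background correction.

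Averaged over the 8 probes, the log2 level was 8.66, 8.86, 8.98 and 8.76 in mutant testes 1 to 4, against 9.11, 9.17, 8.76 and 4.79 in wild-type testes 1 to 4. Summed over the 6 genes on the linear scale, the background-corrected level was 7274, 9336, 9270 and 7837 in mutants, against 10781, 9380, 8218 and 110 in wild type. Only 1 of the 8 libraries stood apart in both measures, and the other 7 lay close together. Wild type 4 was the lowest library for 7 of 8 probes, counting a probe only where the next-lowest library detected it, and by 1 or more on the log2 scale for the same 7. Over all 12487 probes that passed the detection filter in testis, 12.1% were lowest in wild type 4 by that count and 1.01% by that margin. The gap was thus not limited to Spint4 and Adam7, since Lcn8, Lcn5, both Gpx5 probes and 1 Cst11 probe showed it too.

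The comparison of mutant with wild-type testes asks whether the Sgms1 mutation went with a different level of these genes. For 7 of 8 probes the mean was higher in mutants, with a median log2 difference of 1.24, against 0.02 over all probes tested, of which 54.2% were higher in mutants. The differences were 1.26 (SE 1.08) for Lcn8, 0.20 (SE 0.42) for Lcn5, 1.31 (SE 1.00) and 1.23 (SE 0.77) for the Gpx5 probes, 1.32 (SE 1.03) for Adam7 and 1.33 (SE 0.94) for Spint4. Cst11 differed by 0.52 (SE 0.76) on its brighter probe and by -0.33 (SE 0.18) on the dim one. With limma and Benjamini-Hochberg adjustment over all probes, 0 of the 8 were called, beside 0% of the 12487 probes tested. At an unadjusted p under 0.05 the count was 0 of 8, beside 5.53%, and mutant and wild-type values overlapped for all 8 probes, where 3.42% of all probes did not overlap.

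These differences turned on the 1 library. Without wild type 4, with 4 mutants against 3 wild types, the mean log2 difference over the 8 probes was -0.20, against 0.85 with it, and 6 of 8 probes were lower in mutants, as were 45.6% of all probes. Lcn8 then averaged 11.82 ± 0.19 in mutants (n = 4) and 12.08 ± 0.15 in the remaining wild types (n = 3), a log2 difference of -0.26 (SE 0.15). The brighter Cst11 probe averaged 8.31 ± 0.35 in mutants (n = 4) and 8.83 ± 0.33 in wild type (n = 3), a difference of -0.53 (SE 0.20), and the dim one differed by -0.52 (SE 0.14). Lcn5 differed by -0.30 (SE 0.26), Adam7 by -0.11 (SE 0.25) and the Gpx5 probe ILMN_2638087 by -0.09 (SE 0.18), all lower in mutants. Spint4 at 0.02 (SE 0.21) and the Gpx5 probe ILMN_2902167 at 0.17 (SE 0.20) were not lower. The adjusted test called 0 of 8 probes in this comparison too, beside 0% of 12263, and 2 of 8 had an unadjusted p under 0.05, beside 8.75% of all probes. Scaled by the array median in place of quantiles, a choice tried after seeing the data, 4 of 8 were lower, with all probes shifted by 0.14.

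**Figure D2:**
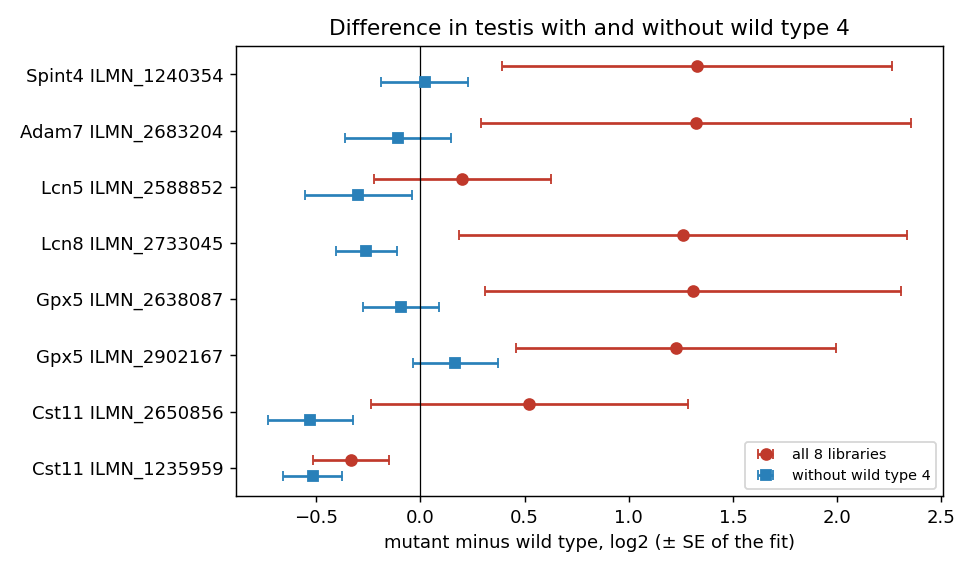
Log2 difference, mutant minus wild type, on the horizontal axis for each of the 8 probes (rows), with all 8 testis libraries and without wild type 4, with standard errors as bars. With wild type 4 the points lie between -0.33 and 1.33 with wide bars for most probes, and without it all lie between -0.53 and 0.17.

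The 8 probes moved together over the 8 libraries mainly through that library. Between pairs of probes, Pearson's r over the 8 libraries was between 0.47 and 0.99 in all 28 pairs, with a median of 0.95. Over the 7 libraries without wild type 4 it was between -0.56 and 0.83 with a median of 0.19, and 5 pairs were negative. Among those 7 libraries Adam7 and the brighter Cst11 probe moved alike (0.78), as did the 2 Cst11 probes (0.83), whereas Spint4 and Adam7 ran opposite (-0.39) and the 2 Gpx5 probes were unrelated (0.06). All these values share the same arrays and normalization, and they are given as descriptions.

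The genes whose testis pattern was most like the mean of the 8 probes were sought among 1509 probes that varied by at least 1 on the log2 scale. The 10 most alike, by Pearson's r over 8 libraries with every r at or above 0.99, were Ntsr2, Spag11b, Spag11a, St6gal1, Lcn12, Defb20, Clpsl2, Defb42, Lcn10 and Slc38a5. They include lipocalins (Lcn12, and Lcn10 from the Lcn5 locus), beta-defensins or defensin-like secreted proteins (Defb20, Defb42, Spag11a, Spag11b), a neurotensin receptor (Ntsr2), a sialyltransferase (St6gal1) and an amino acid transporter (Slc38a5). Ntsr2 read 8.02, 8.23, 8.25 and 8.14 in mutant testes 1 to 4, against 8.52, 8.57, 7.99 and 4.30 in wild-type testes 1 to 4. Slc38a5 kept more signal in wild type 4, with 11.39, 11.39, 11.43 and 11.37 in mutants, against 11.59, 11.36, 11.45 and 7.62 in wild type. These genes were picked for this very pattern, which rests on wild type 4.

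The rest of the epididymal programme was taken from a list of 57 other genes, of which 50 had a probe and 46 genes with 51 probes passed the detection filter. Of these 51 probes, 46 were lowest in wild type 4 with the next-lowest library detected, beside 12.1% of all probes, and 35 by 1 or more on the log2 scale, beside 1.01% of all probes. The summed level of the 46 genes lay between 20320 and 21408 in mutants, against 31231, 28912, 23469 and 1918 in wild-type testes 1 to 4. Defb20, a beta-defensin, read 11.59, 11.50, 11.50 and 11.47 in mutants, against 11.87, 11.82, 11.67 and 6.35 in wild type on the log2 scale. Defb18 and Defb25, of the same family, read 5.27 and 5.26 in wild type 4, and Teddm2, a transmembrane protein of the epididymis, 4.68 there. Some genes of the list were not low in that library, or were low there to a lesser degree. Aqp9, a water and glycerol channel, read 9.16, 9.69, 9.25 and 9.03 in mutants, against 9.39, 9.59, 9.68 and 9.68 in wild type. Defb45 was 8.62 in wild type 4, where the other libraries lay between 9.57 and 10.05.

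With all 8 libraries 36 of the 51 probes were higher in mutants, beside 54.2% of all probes. Their median log2 difference was 0.35, against 0.02 over all probes. Without wild type 4, 47 of 51 were lower, beside 45.6% of all probes, with a median of -0.38, against 0.02 over all probes. The adjusted limma test called 0 of 51 either way, beside 0% of all probes. At an unadjusted p under 0.05 there was 1 probe with all libraries, beside 5.53%, and there were 24 without wild type 4, beside 8.75%. Under median scaling that last count was 5, beside 2.86% of all probes. There 38 of 51 were lower, with the list's median at -0.17 and that of all probes at 0.14.

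**Figure D3:**
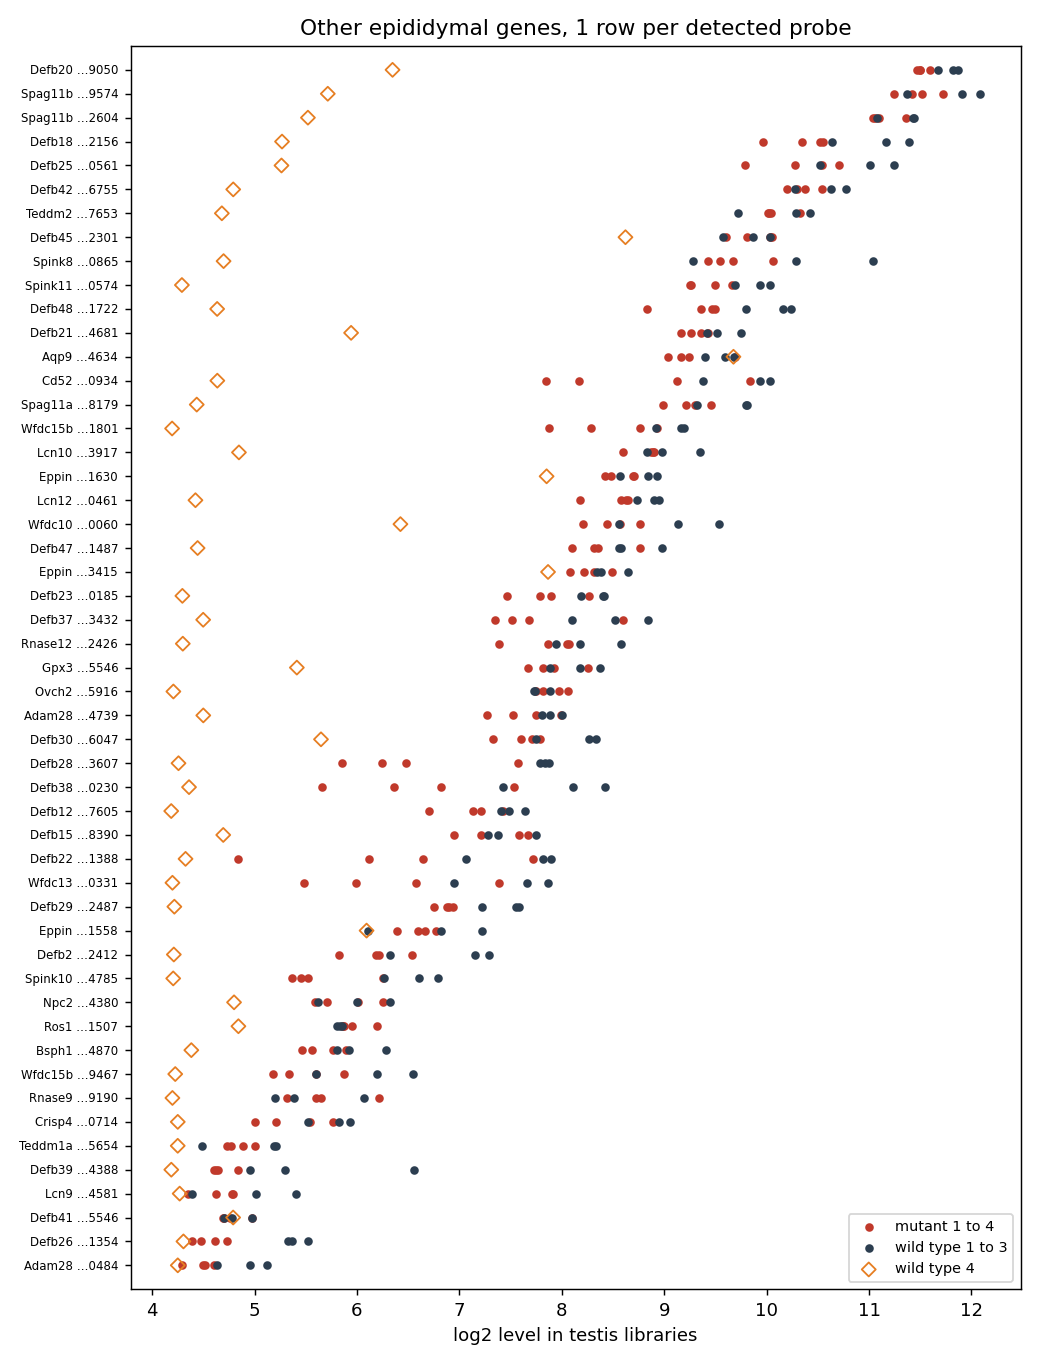
Log2 level (horizontal axis) of the 51 detected probes of other epididymal genes, 1 row per probe, with the mutants, wild types 1 to 3 and wild type 4 marked apart. Wild type 4 is the lowest point in 46 rows in which the next-lowest library was detected, and rows such as Aqp9 and Defb45 hold its few high points.

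Marker lists for the cell types a testis or epididymis piece could hold were read in the same way, as summed levels on the linear scale. Epididymal epithelium markers moved with the 8 genes: the 6 detected of 9 with a probe summed to 188 to 222 in mutants, against 254, 238, 204 and 19.4 in wild-type testes 1 to 4. All 6 were lowest in wild type 4 with the next-lowest library detected, beside 12.1% of all probes. Only 3 of the 6 were so by 1 or more on the log2 scale, beside 1.01%. These were Krt14, a basal cell keratin, and the tight junction proteins Cldn4 and Cldn3. Their raw intensities were low, 109 to 208 in the other 7 libraries. Foxi1, Atp6v1b1 and Krt5 did not pass the filter. Efferent duct and rete markers were low in wild type 4 too: Cdh16 and Aqp1, the 2 detected of 7 with a probe, summed to 84.3 to 95.6 in mutants, against 64.5, 95.9, 77.8 and 12.5 in wild type. Both were dim. Raw intensities in the other 7 libraries were 113 to 153 for Cdh16 and 114 to 145 for Aqp1, against 102 in wild type 4 for each. Of the 4 detected probes of these genes, 3 were lowest in wild type 4, only 1 of them by 1 or more on the log2 scale, and 1 Aqp1 probe was not. Esr1, Pax2, Pax8, Lrp2 and Emx2 did not pass the filter. Smooth muscle markers (Acta2, Actg2, Myh11 and 1 other) had their lowest sum in wild type 4, to a lesser degree. They summed to 2674 to 3158 in mutants, against 3874, 3067, 2875 and 2134 in wild type. Of their 7 detected probes, 4 were lowest in wild type 4 with the next-lowest library detected, and the Actg2 probe named here was not.

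Markers of the testis itself were not low in wild type 4, and none of their detected probes was lowest there. Haploid germ cell genes (Smcp, Prm1, Odf1 and 3 others) summed to 14320 to 20228 in mutants, against 19865, 21752, 20224 and 18630 in wild-type testes 1 to 4. Meiotic genes summed to 1814 to 2202 in mutants, against 1605, 1667, 1698 and 1762 in wild type. Sertoli cell genes summed to 2185 to 3155 in mutants, against 2455, 2178, 2350 and 2522 in wild type. Leydig cell genes (Insl3, Cyp17a1 and others) summed to 1039 to 1316 in mutants, against 1214, 1215, 1193 and 1462 in wild type, so wild type 4 was the highest of the 8. Fat genes were at 123 in wild type 4, inside the range of 94.0 to 270 over the other 7 libraries, and seminal vesicle genes were near background in all (22.8 to 33.9). Blood cell genes ranged from 331 to 782 in mutants and from 412 to 988 in wild type.  The part that the amount of epididymal or duct tissue in each piece had in the result was not tested, and in bulk RNA fewer cells of a type and less RNA per cell cannot be told apart.

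**Figure D4:**
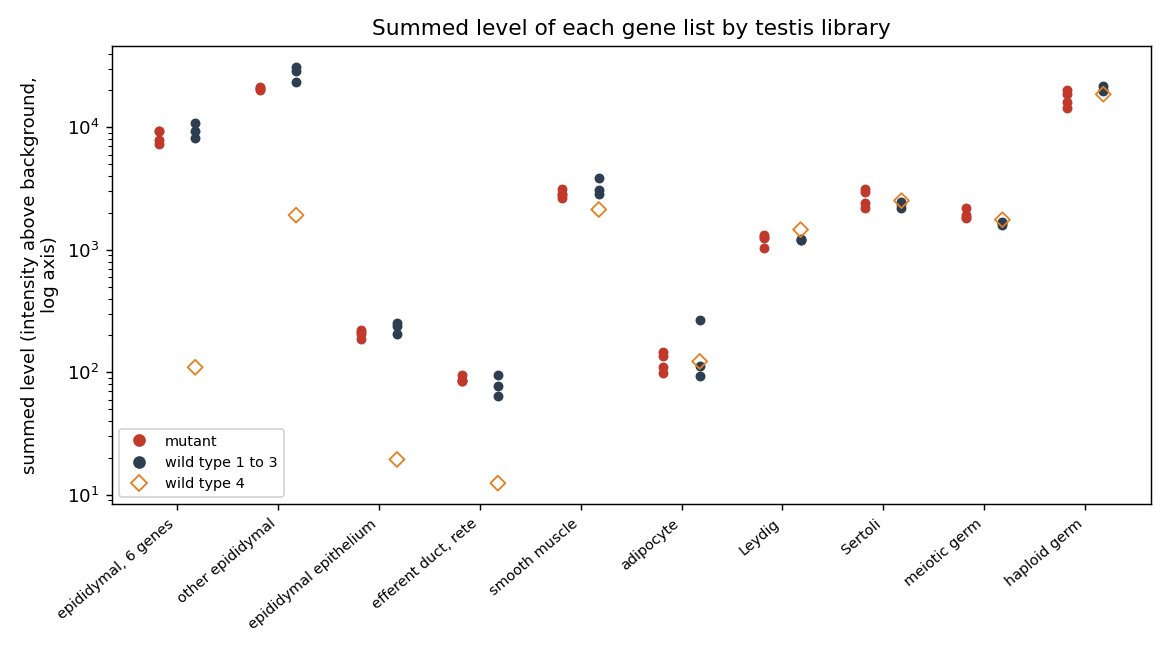
Summed level of each marker list in each testis library, as intensity above background on a log axis, with mutants, wild types 1 to 3 and wild type 4 marked apart. The epididymal, epididymal epithelium and efferent duct lists are low in wild type 4, and the germ cell, Sertoli and Leydig lists are not.

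Outside the testis libraries the 8 probes were at or near background, a measure the choice of the genes did not use. In brain, 9 of 56 pairs of probe and array were detected, with raw intensities between 92.2 and 144, and in muscle 5 of 56, between 114 and 146. Only 1 of 8 probes passed the filter in brain and 0 of 8 in muscle. The Cst11 probe ILMN_2650856 was detected on 7 of 7 brain arrays, at 116, 128, 125 and 115 in mutants 1 to 4, against 144, 119 and 118 in wild types 1 to 3. Its second probe was detected on 0 of 7. The log2 level of the first averaged 5.21 ± 0.15 in mutants (n = 4) and 5.05 ± 0.06 in wild type (n = 3), a difference of 0.16 (SE 0.11, limma, adjusted p = 1.00), where 0% of 15264 brain probes were called. Without the libraries labelled mutant 2 and wild type 3 it was 0.09 (SE 0.14, adjusted p = 0.978). Lcn8 was detected in 1 of 4 mutant and 1 of 3 wild-type brains, and in 0 of 4 mutant and 2 of 3 wild-type muscles. Adam7 was detected in 1 of 4 mutant and 0 of 3 wild-type muscles. The Cst11 probe ILMN_2650856 was detected in 2 of 4 mutant and 0 of 3 wild-type muscles. Its log2 levels there did not overlap, 4.76 ± 0.18 in mutants and 4.58 ± 0.05 in wild type (SD, n = 4 and n = 3), while its raw intensities did. Lcn8 went the other way in muscle, at 4.48 ± 0.12 in mutants and 4.74 ± 0.12 in wild type, without overlap on the log2 or raw scale. Near background, neither probe passed the filter in muscle, so neither was tested. The share of all muscle probes without overlap is not given here.

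**Figure D5:**
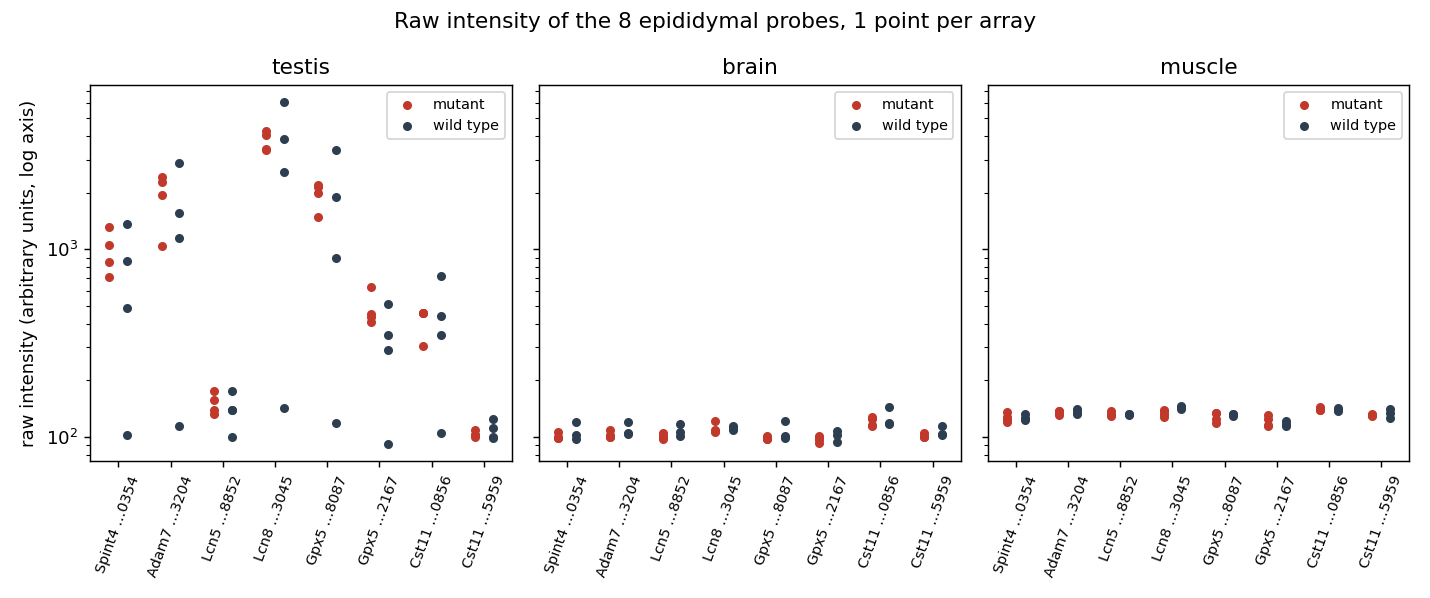
Raw intensity on a log axis of each of the 8 probes in the testis, brain and muscle arrays, 1 point per array, with mutants left of wild types in each pair. Apart from wild type 4, the testis points lie above the brain and muscle points for Spint4, Adam7, Lcn8, both Gpx5 probes and the brighter Cst11 probe, the Lcn5 probe overlaps the muscle points, and the second Cst11 probe lies below them.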

How the data were processed

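Total RNA of testis, brain and muscle was measured on Illumina bead arrays, 1 array per tissue and mouse. The authors' deposited tables hold linear intensities per probe with a detection p-value, and their processed intensities, whose scaling and background treatment are not given in the sources used here. GenomeStudio 2011.1 was used, per the submitters' processing notes. The processed table kept the probe ranks of the raw intensities on each array, with medians of 15.0 to 15.1 and about 4200 values below 0 per array. Gene names came from GEO's platform annotation, in which 23978 of 25697 probes had 1 symbol and 1719 had none or several.

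The raw intensities were background-corrected (normexp, with the negative control level worked out from the detection p-values), quantile-normalized and log2-transformed within each tissue (neqc in limma 3.58.1, R 4.3.3, offset 16). A probe was kept at a detection p under 0.05 on at least 3 arrays of a tissue. Genotypes were compared with limma (lmFit and eBayes, two-sided, Benjamini-Hochberg at 5% over all kept probes), and the procedure was tested on simulated data. The simulated libraries all had the same noise and none stood apart, so that test does not cover a library such as wild type 4. A level is a normalized log2 intensity, and a summed level adds, over the genes of a list, the best probe's intensity above the offset. Arrays give no read depth, and the number of arrays limits the precision. Nothing in the labels says how the pieces of tissue were dissected. The replicates carry different mouse labels within a tissue.

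The members and lists were chosen with earlier results of these data known. Named were every probe of the members, the 10 genes most like their mean in testis, up to 8 detected genes of the other epididymal list with the highest mean level, Sgms1, and the 3 highest genes of each marker list. Listed markers that did not pass the filter are named as such, and other genes named outside that rule were chosen after their values were seen. Same-numbered mutant and wild-type testes did not deviate together (r of -0.01, -0.01, 0.00 and 0.02), so the numbers were not taken as pairs. Alternatives were other background corrections, offsets and scalings, the authors' processed values, other detection filters and variance models, and each replicate left out in turn.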

Additional observations from a re-analysis of the deposited data

Results flagged for a closer look

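Within groups of 4 libraries, the highest or lowest sample was compared with its nearest neighbour by Dixon's test, which flags about 1 in 20 groups by chance. For the epididymal genes and the 10 genes most like them, chosen by their testis pattern or with it known, the chance rate has no meaning: of their 37 testis groups 21 stood out, 17 of them through that library. Among the other 84 groups 11 stood out, 6 of them through wild-type testis 4, in genes of lists that were also written with these data known. Among the epididymal genes its log2 levels were 6.00 for Lcn8, 5.31 and 4.14 for the 2 Gpx5 probes, 5.12 for Adam7, 4.51 for Spint4 and 4.63 for the brighter Cst11 probe. The mean of the 8 probes was 4.79 there. Among the genes with a like pattern it read 4.30 for Ntsr2, 5.52 and 5.72 for the 2 Spag11b probes, 4.44 for Spag11a, 6.26 for St6gal1 and 4.42 for Lcn12. Further low levels were 6.35 for Defb20, 4.36 for Clpsl2, 4.79 for Defb42, 4.85 for Lcn10 and 7.62 for Slc38a5. Among the other groups, the Spag11b probe ILMN_3089574 (5.72), Defb18 (5.27), Defb25 (5.26) and Teddm2 (4.68) stood out too. So did the duct marker Cdh16 (4.46) and the basal cell keratin Krt14 (4.15).

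In 9 groups in all the sample that stood apart was another library. Mutant testis 1 was lowest of the mutants for the brighter Cst11 probe (7.79) and for Lcn12 (8.18), mutant 2 was lowest for Cdh16 (5.71) and mutant 4 for Lcn10 (8.60). Mutant 2 was highest for the Spag11b probe ILMN_3162604 (11.36) and for Teddm2 (10.32). Wild-type testis 2 was lowest for the Sertoli junction gene Cldn11 (10.45). In muscle, where neither probe passed the detection filter, mutant 2 was highest for the second Cst11 probe (4.57) and mutant 3 for Spint4 (4.43).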

How the results depend on the processing

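The limma test called 0 of the epididymal probes and 0 of the other epididymal probes in testis under every alternative run, and 0 of all probes except for 1 without a detection filter. The mean log2 difference over the 8 probes was 0.85, and it lay between 0.55 (no background correction) and 1.02 (median scaling, which moved the median of all probes by 0.12) under the alternatives that kept all 8 libraries. Without each replicate in turn it ranged from -0.20 to 1.26, and the negative value belongs to the fit without wild type 4. The corresponding ranges were -0.11 to 1.86 for Adam7, -0.53 to 0.97 for the brighter Cst11 probe, -0.092 to 1.90 for the Gpx5 probe ILMN_2638087, -0.30 to 0.57 for Lcn5 and -0.26 to 1.82 for Lcn8, each turning negative only without wild type 4. The range of the member mean over the testis libraries was 4.38, against 2.81 without background correction and 0.51 to 4.38 without each replicate in turn. Wild type 4 was lowest by 1 or more for 7 probes in each setting with all libraries, except for 6 without background correction or with an offset of 50. With wild type 4 left out, choices added after seeing the data gave mean differences of -0.13 (no background correction), -0.15 (offset of 50), -0.26 (all arrays together), -0.27 (authors' values), -0.000928 (median scaling) and -0.12 (wild type 2 also left out). With the replicate number as a block, the mean difference was 0.85 and 0 probes were called, and the block changed no call. A slide block was not run, since the files name no slide. Signal over background limits Lcn5 and the second Cst11 probe, and in wild type 4 also the Gpx5 probe ILMN_2902167, all 3 undetected there.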

Other observations

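A group of epididymal genes varied among the 7 testis libraries other than wild type 4, unlike Lcn8 or Defb20, and was picked out after its values were seen. Cd52, a glycoprotein that coats sperm in the duct, read 8.17, 7.85, 9.13 and 9.84 in mutant testes 1 to 4, against 9.93, 10.03, 9.38 and 4.64 in wild-type testes 1 to 4 (log2). Defb22, a beta-defensin of the sperm coat, read 6.11, 4.83, 6.64 and 7.72 in mutants, against 7.89, 7.82, 7.06 and 4.33 in wild type. Defb38, Defb28 and Wfdc13, a whey acidic protein family gene, had the same order, with mutant 2 lowest and mutant 4 highest of the mutants. Without wild type 4 their log2 differences, mutant minus wild type, were -1.03 (SE 0.37) for Cd52, -1.26 (SE 0.48) for Defb22, -1.39 (SE 0.35) for Defb38, -1.30 (SE 0.30) for Defb28 and -1.13 (SE 0.36) for Wfdc13. With all 8 libraries they were 0.25 (SE 0.97) for Cd52, -0.45 (SE 0.73) for Defb22 and -0.49 (SE 0.72) for Defb38. For Defb28 and Wfdc13 the difference with all 8 libraries is not given here. Wild type 4 was lowest for these genes too, at 4.26 and 4.20, against 5.85 or more and 5.48 or more elsewhere. The adjusted p of the 5 differences without wild type 4, by limma over all probes, lay between 0.404 and 0.520.

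Of the 12487 probes kept in testis, 126 were lower in wild type 4 than in every other library by 1 or more on the log2 scale, and 0 were higher there by that much. The epididymal genes accounted for 7 and the other epididymal list for 35 of the 126, and 80 belonged to no list, 71 of them with a gene symbol. Among those 71, also picked out after their values were seen, Ly6g5c and Ly6g5b were not detected in wild type 4 and read 9.09 or more and 8.67 or more in the other 7 libraries (log2). Lrrc57 read 4.76 in wild type 4 and 8.77 or more elsewhere, and Cuzd1 5.48 and 9.19 or more. Ido1, a tryptophan-degrading enzyme known from the mouse epididymis, read 4.54 in wild type 4 and 8.50 or more elsewhere. The 71 also included ribosomal protein genes, with smaller gaps. Rpl10 read 7.75 in wild type 4 and 9.24 or more elsewhere, and Rps4x 7.92 and 9.39 or more.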
